A study of Mus musculus and Homo sapiens with 18 samples.

Results

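The collagen genes are described here in mouse bladder carcinoma libraries. A gene was counted as a collagen gene where its symbol was Col, a number, the letter a and a number, and where it had at least 1 protein-coding transcript in the tumour table. This gave 44 of the 55858 gene identifiers. Transcripts were summed by gene identifier, and the same identifiers were read in the table of the CUUC-G line. The rule itself used no measured value, but it was set with earlier results of these data known. By the way their proteins assemble, the genes fell into 9 classes: 11 fibrillar chains, 6 chains of basement membrane type IV, 6 of beaded filament type VI, 1 of anchoring fibril type VII, 3 short chain network collagens, 9 FACITs (fibril-associated collagens with interrupted triple helices), 4 transmembrane collagens, 2 multiplexins and 2 others.

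Collagens are secreted matrix proteins whose chains wind around each other into a helix; some types are built from 1 gene product, while others, such as types I and IV, combine chains of different genes. The fibrillar types give tissue its tensile strength, type IV forms the sheet of the basement membrane under an epithelium, and the FACITs and multiplexins decorate fibrils and basement membranes. In the bladder, fibroblasts and smooth muscle cells make most of the fibrillar collagen of the wall, and basement membrane collagens come from the urothelium as well as from the cells beneath it.

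Poly(A)-selected RNA of bladder carcinoma models was sequenced in 18 libraries, in 6 groups of 3, of which the 12 mouse libraries were used. The first comparison set treated GEMM tumours (GEMM stands for genetically engineered mouse model) against libraries labelled GEMM control, called control tumours here. The treated tumours are labelled as chemotherapy treated, with cisplatin plus gemcitabine in the protocol, and are named Relapse in their library names. The second set the mouse line CUUC-G, whose samples are labelled GEMM as well, carrying a guide RNA against Igfbp5 (sgIgfbp5) against the same line with the guide sgScr. The human line MGHU3 of the same series was not analysed here. The alleles, promoter or Cre behind the model, the strain, sex and age of the mice, and whether CUUC-G samples were clones or pools are not given in the sources used here. The guide samples are called knockdowns in the labels and knockouts in the series design. In the CUUC-G table, the columns marked mI were read as sgIgfbp5, a reading that the table itself does not spell out. No label states that the 3 libraries of a group came from separate tumours or cultures, so the p-values measure the spread between these libraries, which may be technical.

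In units of 1e6 estimated counts, library totals ran over 18.965 to 21.757 in the tumours and 19.211 to 20.73 in CUUC-G. Igfbp5, which encodes a secreted binding protein of insulin-like growth factors, had 0.490 ± 0.108 CPM (counts per 1e6 counts) in sgIgfbp5 libraries and 1.97 ± 0.814 CPM in sgScr libraries (SD, n = 3 each; log2 fold change -2.0 ± 0.42 SE, edgeR adjusted p = 0.00125). In the tumours it had 2.46 ± 0.698 CPM at relapse and 0.459 ± 0.381 CPM in controls (SD, n = 3 each). The Y-linked gene Ddx3y had 0 counts in the relapsed libraries, against 74.2 ± 4.02 CPM in control libraries (SD, n = 3), and 0 counts in every CUUC-G library. The summed level of 15 urothelial markers was 624 to 651 CPM at relapse and 31.6 to 38.7 CPM in control tumours, where the keratin gene Krt8 had 1 count in all 3 libraries together. Upk3a and Krt5 were at 0 in every tumour library of both groups. The list did not move as one: 6 of its 10 tested markers were higher at relapse, against 36.6% of all genes tested. Gata3 was lower, at 1.69 ± 0.409 CPM at relapse and 15.5 ± 2.81 CPM in controls (SD, n = 3 each). Pparg did not pass, at 7.63 ± 0.884 CPM at relapse and 6.75 ± 0.620 CPM in controls (SD, n = 3 each). Of 10 leukocyte markers, 8 were under 1 CPM in every tumour library. The relapsed and control libraries thus differed in Ddx3y and in urothelial markers as well as in treatment. A difference of sex, origin or cell content cannot be told apart from relapse in these libraries.

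All values below come from edgeR's two-sided quasi-likelihood test over all genes, with p-values adjusted over 14373 genes in the tumours and 14553 in CUUC-G and a threshold of 0.05. Most of the transcriptome differed in both: of all genes tested, 73.5% passed at relapse and 70.8% did so in CUUC-G. A call by itself therefore says little about a single collagen gene, and sizes and directions are given beside it. In bulk RNA, fewer cells of a type and less RNA per cell cannot be told apart.

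Collagen transcripts were much less abundant in relapsed than in control tumours. Their deposited TPM (a level per transcript length, scaled to the same total in every library) summed to 3085, 3115 and 3134 in the relapsed libraries, against 7832, 7914 and 8049 in the control libraries. That is 0.308% to 0.313% of all TPM at relapse and 0.783% to 0.805% in controls. The groups did not overlap, and the ratio of their means was 0.392. In CUUC-G the sum was 2061, 2242 and 2291 with sgIgfbp5, against 3290, 3106 and 2978 with sgScr, a ratio of means of 0.704. The fibrillar class held most of the sum in every library, with 2597 ± 12.5 TPM at relapse and 7086 ± 87.3 TPM in controls, and with 1791 ± 98.9 TPM with sgIgfbp5 and 2599 ± 117 TPM with sgScr (SD, n = 3 each). Not every class moved with it: the type IV sum was 214 ± 12.9 TPM with sgIgfbp5, above the 157 ± 11.5 TPM with sgScr, while at relapse it was 148 ± 3.10 TPM, below the 323 ± 5.81 TPM of control tumours (SD, n = 3 each).

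**Figure D1:**
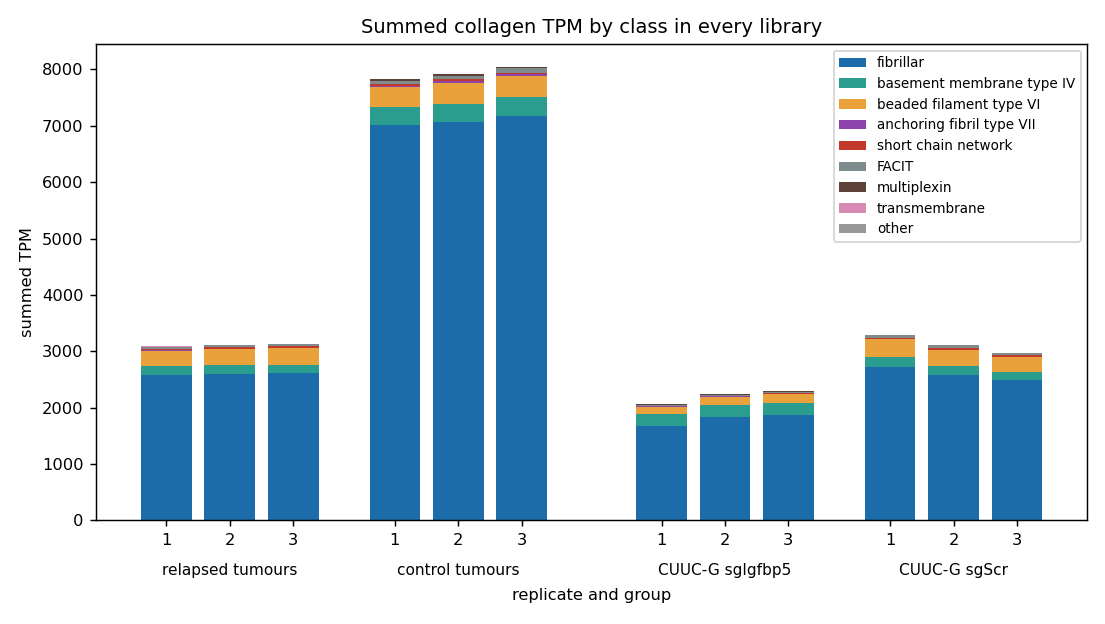
Summed TPM of the 44 collagen genes in each library, stacked by class; each bar is 1 library, with replicates 1 to 3 of relapsed tumours, control tumours, CUUC-G sgIgfbp5 and CUUC-G sgScr. The relapsed bars end between 3085 and 3134 TPM and the control bars between 7832 and 8049 TPM, while the sgIgfbp5 bars end between 2061 and 2291 TPM and the sgScr bars between 2978 and 3290 TPM.

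Of the 44 collagen genes, 30 passed the filter on low counts in the tumours and 14 did not. Among the 30 tested at relapse, 5 were higher, 22 were lower and 3 did not pass the threshold. Over all genes, 36.6% were called higher and 36.9% lower. The median log2 fold change of the tested collagen genes was -1.07, against 0.002 over all genes tested. At least 2-fold differences were found for 4 of them upward and 16 downward, against 13.2% and 12% of all genes. In 27 of the 30 the libraries of the groups did not overlap in CPM, which was so for 75.3% of all genes tested.

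With sgIgfbp5 in CUUC-G, 27 collagen genes were tested and 17 fell under the filter. Of the 27, 11 were higher, 14 were lower and 2 did not pass, against 36.5% higher and 34.3% lower over all genes. Their median log2 fold change was -0.28, against 0.06 over all genes tested. At least 2-fold higher were 10 and at least 2-fold lower 9, with 14.6% and 16.8% of all genes past those bounds. The groups did not overlap for 26 of the 27, as for 73.9% of all genes tested.

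**Figure D2:**
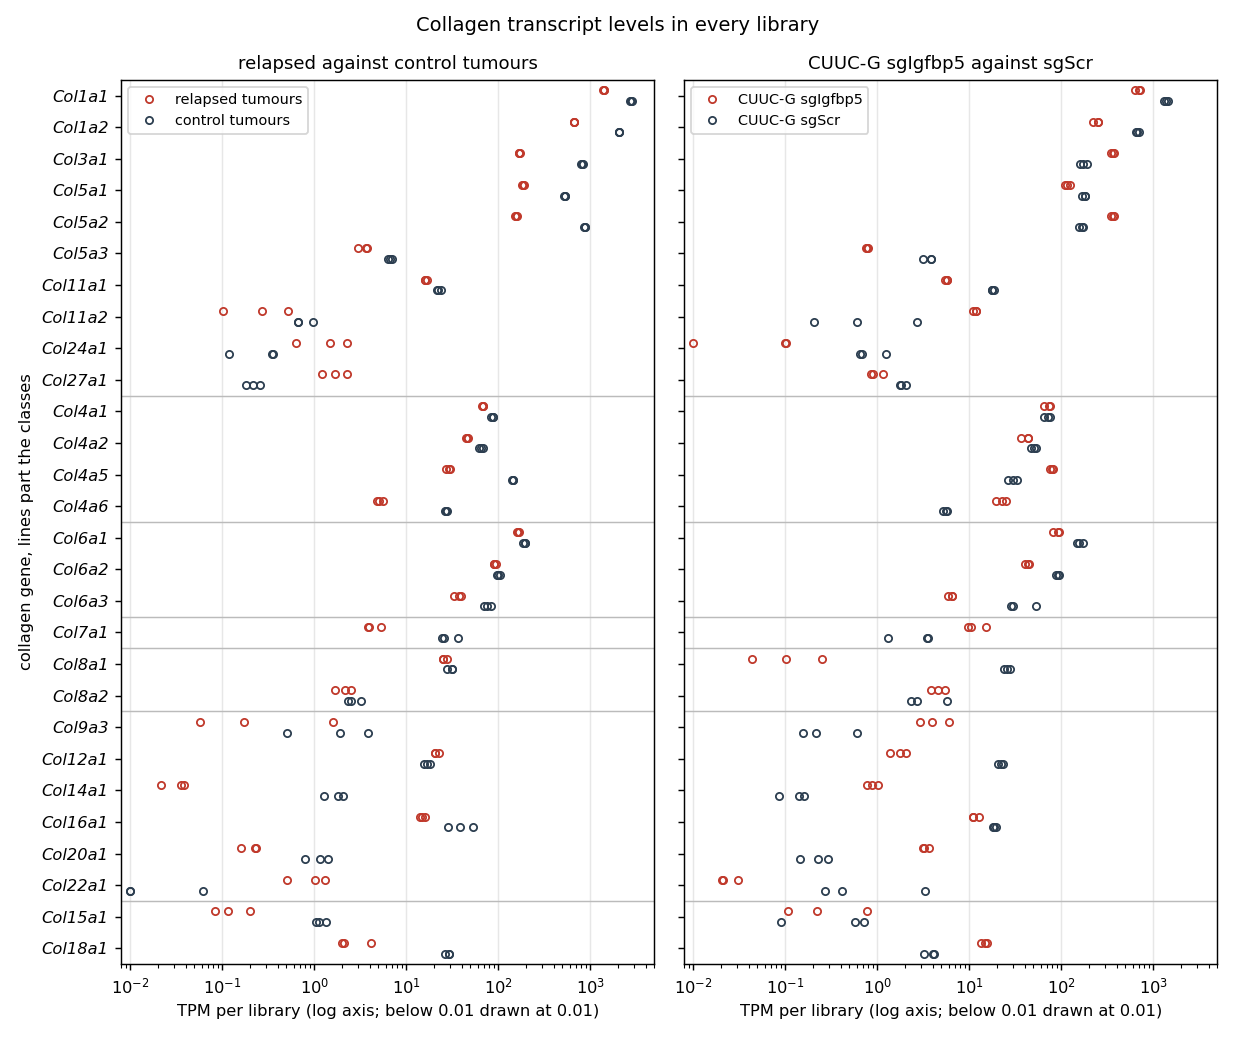
TPM (log axis) of the 28 collagen genes with a mean of at least 1 TPM in any group, 1 circle per library, in class order; red circles are relapsed tumours (left) or CUUC-G sgIgfbp5 (right), dark circles control tumours or CUUC-G sgScr. Circles of a group lie close together for the abundant genes: Col1a1 spans 1386 to 1416 TPM at relapse and 2730 to 2823 TPM in controls.

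Type I, the main fibril of the bladder wall, was lower in both comparisons. Col1a1, which encodes its alpha 1 chain (ENSMUSG00000001506.11; GRCm38 chromosome 11, 94936224 to 94953042), had 5453, 5431 and 5564 CPM at relapse, against 9890, 9839 and 10096 CPM in controls (log2 fold change -0.86 ± 0.02 SE, edgeR adjusted p = 2.45e-23). In TPM it was the most abundant collagen gene in all 4 groups. Col1a2, which encodes the alpha 2 chain (ENSMUSG00000029661.17; chromosome 6, 4504814 to 4541544), fell more, with 2342, 2327 and 2360 CPM at relapse and 6623, 6448 and 6650 CPM in controls (-1.49 ± 0.02, edgeR adjusted p = 4.13e-28). With sgIgfbp5, Col1a1 had 2627, 2971 and 2864 CPM, against 6059, 6064 and 5693 CPM with sgScr (-1.07 ± 0.07, edgeR adjusted p = 1.92e-07). Col1a2 had 830, 948 and 884 CPM with sgIgfbp5 and 2614, 2650 and 2542 CPM with sgScr (-1.55 ± 0.07, edgeR adjusted p = 8.42e-09). The libraries of neither gene overlapped between groups in either comparison.

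The transcripts of the type I chains did not keep their proportion. In TPM, the ratio of Col1a1 to Col1a2 was 2.11 ± 0.0225 at relapse and 1.35 ± 0.0104 in control tumours, and 2.84 ± 0.0600 with sgIgfbp5 and 2.04 ± 0.0281 with sgScr (SD, n = 3 each). Every library of the first group of each comparison lay above every library of the second. These ratios are of RNA and not of protein, as are all levels here, and are given without a test.

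Type III, which forms thin fibrils together with type I and comes from the single gene Col3a1 (ENSMUSG00000026043.19; chromosome 1, 45311538 to 45349706), went opposite ways in the comparisons. Col3a1 had 549, 567 and 566 CPM at relapse, against 2430, 2336 and 2464 CPM in controls, 4.30-fold lower (-2.10 ± 0.03, edgeR adjusted p = 2.46e-29). With sgIgfbp5 it had 1270, 1432 and 1309 CPM, against 630, 637 and 623 CPM with sgScr, 2.12-fold higher (1.09 ± 0.07, edgeR adjusted p = 1.09e-07). The ratio of Col3a1 to Col1a1 in TPM was 0.121 ± 0.00392 at relapse and 0.293 ± 0.00436 in control tumours, and 0.531 ± 0.0125 with sgIgfbp5 and 0.127 ± 0.0176 with sgScr (SD, n = 3 each). The relapsed and the sgScr libraries thus showed nearly the same ratio, in tables that were deposited separately and between which nothing was tested.

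The promoter windows of Col1a2 and Col3a1 are shown because these abundant fibrillar genes moved apart in CUUC-G. Each runs 5′ to 3′ over 300 bases, 250 before and 50 after the RefSeq start on GRCm38.p6, with matches on either strand to the CCAAT box, the GC box (letters GGGCGG) or the TATA box (letters TATAAA) in capitals. The Col1a2 window is chr6:4505368-4505667 and the Col3a1 window chr1:45311288-45311587, both on the plus strand.
Col1a2: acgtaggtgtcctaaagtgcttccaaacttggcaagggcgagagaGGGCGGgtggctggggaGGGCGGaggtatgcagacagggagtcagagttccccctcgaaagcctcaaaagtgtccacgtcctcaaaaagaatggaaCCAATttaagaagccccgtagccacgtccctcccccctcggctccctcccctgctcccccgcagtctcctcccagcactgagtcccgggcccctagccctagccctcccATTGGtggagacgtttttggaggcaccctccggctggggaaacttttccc
Col3a1: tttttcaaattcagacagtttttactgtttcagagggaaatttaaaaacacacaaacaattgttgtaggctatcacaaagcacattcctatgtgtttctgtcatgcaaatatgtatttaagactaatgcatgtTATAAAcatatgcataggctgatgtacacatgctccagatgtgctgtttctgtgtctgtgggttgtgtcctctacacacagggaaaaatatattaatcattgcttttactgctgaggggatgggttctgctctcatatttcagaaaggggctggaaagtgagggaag
The Col1a2 window held 2 CCAAT and 2 GC box matches. The Col3a1 window held neither and 1 TATA box match. Over 32851 windows of the same length from all genes, 37.4% held a CCAAT box, 35.7% a GC box and 13.6% a TATA box. Among the 38 windows of the 35 collagen genes with a window, the shares were 34.2%, 60.5% and 13.2%. The letters TGANTCA of the AP-1 site were also searched, and were in 7.81% of all windows, in 1 collagen window and in none of the windows shown. These are matches of letters, not tested sites.

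Col5a1, Col5a2 and Col5a3 encode type V, which starts type I fibrils and limits their width. At relapse all of them fell. Col5a2 (ENSMUSG00000026042.17) fell most among the abundant fibrillar genes, with 683, 695 and 700 CPM at relapse, against 3559, 3412 and 3526 CPM in controls (-2.34 ± 0.03, edgeR adjusted p = 5.78e-31). Col5a1 had 509, 504 and 518 CPM at relapse and 1509, 1458 and 1549 CPM in controls (-1.56 ± 0.03, edgeR adjusted p = 3.99e-26), and Col5a3 14.9, 14.8 and 12.2 CPM at relapse and 26.4, 24.2 and 23.6 CPM in controls (-0.83 ± 0.09, edgeR adjusted p = 1.12e-08).

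In CUUC-G the type V chains parted. Col5a2 had 1581, 1701 and 1575 CPM with sgIgfbp5, against 775, 794 and 758 CPM with sgScr (1.06 ± 0.07, edgeR adjusted p = 9.24e-08). Col5a1 had 441, 503 and 492 CPM with sgIgfbp5, against 582, 603 and 565 CPM with sgScr (-0.28 ± 0.07, edgeR adjusted p = 0.00428), a call that was lost under library-size scaling (-0.17, edgeR adjusted p = 0.0508). Col5a3 was 4.88-fold lower, with 3.28, 3.49 and 3.19 CPM with sgIgfbp5 and 16.9, 14.4 and 17.5 CPM with sgScr (-2.29 ± 0.14, edgeR adjusted p = 6.45e-08). The ratio of Col5a1 to Col5a2 in TPM was accordingly 0.321 ± 0.0157 with sgIgfbp5 and 1.07 ± 0.0134 with sgScr, and 1.20 ± 0.0535 at relapse and 0.607 ± 0.0116 in control tumours (SD, n = 3 each). A short coding transcript of 1281 bases, Col5a1-203, weighs heavily in it. At relapse it held 15.4% to 16.4% of the Col5a1 counts but 108 to 116 TPM. The longer Col5a1-201 had 74.1 to 76.2 TPM there, against 151 to 155 TPM for Col5a2-201. Col5a1 thus exceeded Col5a2 at relapse only with the short transcript counted. CUUC-G has no values per transcript.

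Col5a2 lies next to Col3a1. On GRCm38 chromosome 1, Col5a2 (45374321 to 45503282, minus strand) and Col3a1 face each other tail to tail with 24614 bases between them. Their fold changes were alike in each comparison, -2.34 and -2.10 at relapse and 1.06 and 1.09 with sgIgfbp5. Their TPM were also close, at 156 ± 4.05 for Col5a2 and 170 ± 3.77 for Col3a1 in relapsed tumours and 868 ± 16.2 and 817 ± 18.9 in control tumours (SD, n = 3 each).

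The minor fibrillar genes were low and varied. Col11a1, which encodes a chain of the type XI fibrils of cartilage, had 75.3, 71.7 and 68.3 CPM at relapse and 100, 95.4 and 100 CPM in controls (-0.46 ± 0.05, edgeR adjusted p = 2.57e-09). With sgIgfbp5 it had 26.3, 24.7 and 26.9 CPM, against 82.7, 83.8 and 76.4 CPM with sgScr (-1.64 ± 0.08, edgeR adjusted p = 1.10e-08). Col11a2, another type XI chain, showed the largest increase of a collagen gene in CUUC-G: 39.8, 36.0 and 38.6 CPM with sgIgfbp5, against 0.573, 0.803 and 0.592 CPM with sgScr, 57.4-fold higher (5.84 ± 0.15, edgeR adjusted p = 1.13e-10). In TPM it averaged 11.7 ± 0.532 with sgIgfbp5 and 1.17 ± 1.33 with sgScr (SD, n = 3 each), and limma on log2(TPM + 1) gave a smaller 2.72 (adjusted p = 0.0015). At relapse Col11a2 had 0.598, 0.398 and 0.833 CPM, against 2.42, 3.05 and 2.31 CPM in controls (-2.07 ± 0.36, edgeR adjusted p = 9.14e-06), resting on 37 counts at relapse and 157 in controls.

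Col24a1 and Col27a1, minor fibrillar collagens known from developing bone and cartilage, were the only fibrillar genes called higher at relapse, and both were lower with sgIgfbp5. Col27a1 had 7.53, 7.37 and 5.15 CPM at relapse and 1.05, 0.841 and 1.01 CPM in controls (2.78 ± 0.24, edgeR adjusted p = 4.86e-11). It had 3.89, 3.84 and 5.07 CPM with sgIgfbp5, against 7.92, 8.48 and 7.32 CPM with sgScr (-0.89 ± 0.17, edgeR adjusted p = 0.000547). Col24a1 had 4.29, 3.69 and 3.14 CPM at relapse and 1.05, 0.526 and 1.01 CPM in controls (2.09 ± 0.31, edgeR adjusted p = 8.02e-07). With sgIgfbp5 it was nearly absent: 5 counts over the group, against 192 with sgScr (-5.25 ± 0.48, edgeR adjusted p = 2.00e-06, and -5.96 without sgIgfbp5 replicate 1). No groups overlapped for either gene.

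Type IV fell at relapse in all 5 chains tested, and by very different amounts. Col4a1 and Col4a2 encode the network found in nearly every basement membrane. Col4a1 (ENSMUSG00000031502.12) had 305, 305 and 304 CPM at relapse and 355, 332 and 354 CPM in controls (-0.19 ± 0.03, edgeR adjusted p = 1.75e-05), and Col4a2 (ENSMUSG00000031503.14) had 198, 204 and 201 CPM at relapse and 260, 238 and 268 CPM in controls (-0.34 ± 0.04, edgeR adjusted p = 1.24e-08). These genes overlap by 22 bases at their starts, on opposite strands of chromosome 8; the kit marks strand but the counting is not stated to use it, so reads from the overlap are uncertain. The second network, of Col4a5 and Col4a6, is known from smooth muscle and some epithelial basement membranes. Col4a5 (ENSMUSG00000031274.17) had 113, 118 and 114 CPM at relapse and 543, 515 and 519 CPM in controls, 4.58-fold lower (-2.20 ± 0.04, edgeR adjusted p = 1.96e-27). Col4a6 (ENSMUSG00000031273.17) was 4.74-fold lower, with 23.7, 26.3 and 22.7 CPM at relapse and 117, 110 and 118 CPM in controls (-2.25 ± 0.06, edgeR adjusted p = 1.56e-22).

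With sgIgfbp5 both chains of the second network rose, while in the first Col4a2 fell and Col4a1 did not pass. Col4a5 had 307, 306 and 309 CPM with sgIgfbp5 and 136, 125 and 110 CPM with sgScr (1.31 ± 0.08, edgeR adjusted p = 7.69e-08). Col4a6 had 93.9, 109 and 112 CPM with sgIgfbp5, against 27.6, 28.2 and 26.7 CPM with sgScr (1.93 ± 0.09, edgeR adjusted p = 7.29e-09). Neither gene's groups overlapped. Col4a2 had 168, 205 and 194 CPM with sgIgfbp5, against 246, 247 and 233 CPM with sgScr (-0.36 ± 0.08, edgeR adjusted p = 0.0023). Col4a1 had 308, 351 and 343 CPM with sgIgfbp5 and 358, 363 and 324 CPM with sgScr, which overlap (-0.06 ± 0.08, edgeR adjusted p = 0.498); its sign turned under library-size scaling and in TPM.

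Col4a3 and Col4a4, which join Col4a5 in the filtering membrane of the kidney, were close to 0. Col4a4 had 0.499, 0.299 and 0.294 CPM at relapse and 1.14, 1.63 and 2.51 CPM in controls (-2.25 ± 0.45, edgeR adjusted p = 6.85e-05). With sgIgfbp5 its value of 0.96 ± 0.48 did not pass (edgeR adjusted p = 0.093) and was 0.28 without sgIgfbp5 replicate 3. Col4a3 fell under the filter in both comparisons.

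Col4a6 and Col4a5 start head to head, and their promoter windows are shown because these partners changed in the same direction in each comparison, by like amounts at relapse (-2.25 for Col4a6 and -2.20 for Col4a5) and by more for Col4a6 (1.93) than for Col4a5 (1.31) with sgIgfbp5. On GRCm38 chromosome X, Col4a6 runs over 141165403 to 141474076 on the minus strand and Col4a5 over 141475385 to 141689234 on the plus strand, with 1308 bases between their starts. Capitals mark the same motifs as above, and each window is written in the direction of its gene. The windows are chrX:141474027-141474326 (Col4a6, minus strand) and chrX:141475169-141475468 (Col4a5, plus strand), with 842 bases between them.
Col4a6: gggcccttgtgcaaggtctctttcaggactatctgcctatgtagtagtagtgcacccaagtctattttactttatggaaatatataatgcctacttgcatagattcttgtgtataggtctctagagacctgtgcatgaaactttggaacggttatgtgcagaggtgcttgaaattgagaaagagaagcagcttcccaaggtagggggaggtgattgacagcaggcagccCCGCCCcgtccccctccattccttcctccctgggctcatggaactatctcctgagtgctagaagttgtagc
Col4a5: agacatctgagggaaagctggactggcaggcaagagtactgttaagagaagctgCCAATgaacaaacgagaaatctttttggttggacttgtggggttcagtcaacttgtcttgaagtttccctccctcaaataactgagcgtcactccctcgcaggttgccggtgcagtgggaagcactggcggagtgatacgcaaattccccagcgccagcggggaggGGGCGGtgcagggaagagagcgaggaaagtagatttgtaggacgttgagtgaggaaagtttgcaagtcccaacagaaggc
The Col4a6 window held 1 GC box, and the Col4a5 window 1 GC box and 1 CCAAT box. Neither held a TATA box. Beside these sequences, the ratio of Col4a5 to Col4a6 in TPM was 5.60 ± 0.507 at relapse and 5.31 ± 0.242 in control tumours, with overlapping libraries, and 3.57 ± 0.432 with sgIgfbp5 and 5.39 ± 0.352 with sgScr, without overlap (SD, n = 3 each). The ratio of Col4a1 to Col4a2 was 1.47 ± 0.0169 at relapse and 1.33 ± 0.0284 in control tumours, and 1.73 ± 0.0527 with sgIgfbp5 and 1.40 ± 0.0310 with sgScr (SD, n = 3 each).

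Type VI, the beaded filaments around cells that join Col6a1, Col6a2 and 1 further chain, stayed near its control level at relapse except in Col6a3. Col6a3 (ENSMUSG00000048126.17), the longest of these chains, had 149, 159 and 162 CPM at relapse and 304, 327 and 315 CPM in controls (-1.01 ± 0.04, edgeR adjusted p = 6.00e-19). Col6a1 had 442, 454 and 463 CPM at relapse and 475, 480 and 493 CPM in controls (-0.09 ± 0.03, edgeR adjusted p = 0.0115), and lost its call without control replicate 3 (edgeR adjusted p = 0.051) or relapsed replicate 1 (edgeR adjusted p = 0.0825). Col6a2 had 247, 243 and 255 CPM at relapse and 240, 243 and 257 CPM in controls, with full overlap (0.01 ± 0.04, edgeR adjusted p = 0.836), and its sign turned under library-size scaling and in TPM.

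With sgIgfbp5 all 3 type VI genes tested fell. Col6a1 had 234, 273 and 258 CPM with sgIgfbp5 and 501, 483 and 463 CPM with sgScr (-0.92 ± 0.07, edgeR adjusted p = 7.21e-07). Col6a2 had 116, 126 and 122 CPM with sgIgfbp5 and 273, 281 and 269 CPM with sgScr (-1.17 ± 0.07, edgeR adjusted p = 3.74e-08). Col6a3 fell 8.14-fold, to 15.1, 20.2 and 21.8 CPM with sgIgfbp5, against 186, 153 and 127 CPM with sgScr (-3.02 ± 0.17, edgeR adjusted p = 1.49e-07). In both comparisons Col6a3 thus fell more than Col6a1: the ratio of Col6a1 to Col6a3 in TPM was 4.47 ± 0.293 at relapse and 2.52 ± 0.167 in control tumours, and 14.1 ± 0.368 with sgIgfbp5 and 4.54 ± 1.14 with sgScr (SD, n = 3 each). The sizes of the tumour ratios depend partly on short transcripts. Protein-coding transcripts held 98.4% to 99.1% of the Col6a3 counts in the tumours. They held 73.1% to 80.6% of its TPM at relapse and 76.8% to 84.3% in controls. A retained-intron transcript of 646 bases, Col6a3-206, had 7.31 to 10.5 TPM at relapse. Col6a4, Col6a5 and Col6a6, which can take the place of Col6a3, fell under the filter in both comparisons.

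**Figure D3:**
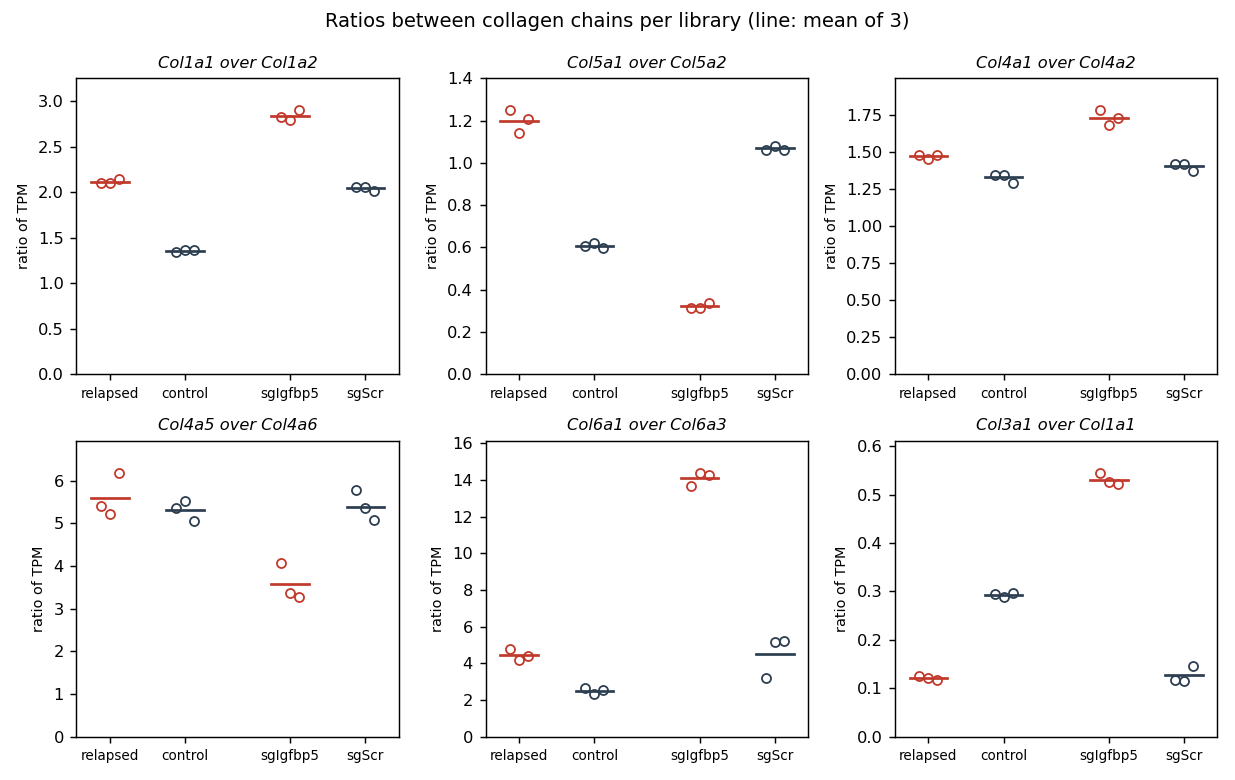
Ratio of TPM between pairs of collagen chains, 1 circle per library and a line at the mean of 3, in relapsed tumours, control tumours, CUUC-G sgIgfbp5 and CUUC-G sgScr; axes start at 0. Col5a1 over Col5a2 averages 1.20, 0.607, 0.321 and 1.07 in these groups and Col6a1 over Col6a3 averages 4.47, 2.52, 14.1 and 4.54. In the tumours, short transcripts hold part of the Col5a1 and Col6a3 TPM.

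Col7a1, the sole gene of the fibrils that anchor an epithelial basement membrane to the tissue below, was 11.5-fold lower at relapse. It had 4.49, 5.08 and 4.41 CPM at relapse and 55.1, 51.2 and 54.0 CPM in controls (-3.52 ± 0.09, edgeR adjusted p = 7.31e-23). With sgIgfbp5 it was 5.93-fold higher, with 41.6, 40.2 and 38.5 CPM, against 6.57, 7.33 and 6.35 CPM with sgScr (2.57 ± 0.10, edgeR adjusted p = 2.08e-09). Its TPM is a poor guide to the protein-coding message: in the tumours, protein-coding transcripts held 86.6% to 87.9% (relapsed) and 91.4% to 95.2% (control) of its counts but 11.7% to 18.2% (relapsed) and 22.6% to 36.6% (control) of its TPM, since a retained-intron transcript of 525 bases, Col7a1-208, weighs heavily per length. With limma on log2(TPM + 1) the log2 fold changes of Col7a1 were -2.47 at relapse and 1.79 with sgIgfbp5; the cause of these smaller sizes was not tested. The counts were spread differently over the coding transcripts as well. All coding counts of the relapsed libraries were given to Col7a1-201 and those of control replicates 2 and 3 to Col7a1-202, while control replicate 1 had 54.8% on Col7a1-201 and 40.4% on Col7a1-202. Their lengths are close, 9198 bases for Col7a1-201 and 9250 bases for Col7a1-202, and the split of a gene's reads over its transcripts is an estimate.

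The short chain collagens Col8a1 and Col8a2 form hexagonal networks known from vessel walls and the cornea. Neither passed at relapse. Col8a1 (ENSMUSG00000068196.6) had 83.9, 92.3 and 86.1 CPM at relapse and 86.1, 95.6 and 95.8 CPM in controls (-0.08 ± 0.05, edgeR adjusted p = 0.159), but passed without control replicate 1 (-0.14, edgeR adjusted p = 0.0177) and in limma on log2(TPM + 1) (-0.21, adjusted p = 0.0494). Col8a2 had 6.23, 4.73 and 7.11 CPM at relapse and 8.39, 6.47 and 5.98 CPM in controls (-0.21 ± 0.17, edgeR adjusted p = 0.279). Both genes' groups overlapped.

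With sgIgfbp5 the same gene Col8a1 showed the largest decrease of any collagen gene tested in CUUC-G. It had 0.858, 0.344 and 0.141 CPM with sgIgfbp5, against 92.9, 91.4 and 85.5 CPM with sgScr, or 27 counts against 5194 (-7.65 ± 0.24, edgeR adjusted p = 2.08e-09). Without sgIgfbp5 replicate 1, which held most of the remaining counts, the value was -8.52. Its partner Col8a2 went the other way, with 11.6, 14.1 and 11.5 CPM with sgIgfbp5 and 8.24, 9.88 and 7.48 CPM with sgScr (0.54 ± 0.14, edgeR adjusted p = 0.00622), a call that was not kept in TPM, where limma gave an adjusted p of 0.307. The Col8a1 promoter is shown because of this change. The window is chr16:57754688-57754987 on the minus strand, with 4 GC box matches in capitals and no CCAAT or TATA box.
Col8a1: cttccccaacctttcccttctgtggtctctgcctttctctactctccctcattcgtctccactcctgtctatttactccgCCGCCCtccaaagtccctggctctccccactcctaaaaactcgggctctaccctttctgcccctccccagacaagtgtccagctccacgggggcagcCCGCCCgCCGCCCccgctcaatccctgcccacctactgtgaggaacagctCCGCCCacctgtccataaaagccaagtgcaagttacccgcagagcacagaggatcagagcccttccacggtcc

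The FACITs sit on the surface of fibrils. At relapse 2 of the 6 tested were higher and 4 lower, and with sgIgfbp5 3 of 5 were higher and 2 lower. Col12a1, found on type I fibrils of tendon and of tissue under load, had a higher TPM than any other FACIT in relapsed and in sgScr libraries. It had 133, 136 and 135 CPM at relapse and 90.1, 101 and 93.4 CPM in controls (0.51 ± 0.04, edgeR adjusted p = 6.89e-11). With sgIgfbp5 it was 9.31-fold lower, with 11.3, 12.6 and 15.5 CPM, against 146, 120 and 101 CPM with sgScr (-3.22 ± 0.16, edgeR adjusted p = 5.19e-08). No libraries of the groups overlapped in either comparison.

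Col14a1, which binds the same fibrils, ran the opposite way at a much lower level. It had 0.150, 0.149 and 0.0980 CPM at relapse (8 counts in all) and 4.10, 6.15 and 5.58 CPM in controls (318 counts), 38.1-fold lower (-5.25 ± 0.38, edgeR adjusted p = 7.64e-13). With sgIgfbp5 it had 2.22, 3 and 2.68 CPM, against 0.730, 0.201 and 0.430 CPM with sgScr (2.53 ± 0.39, edgeR adjusted p = 0.000138). Col16a1, a minor FACIT of several tissues, was lower in both, with 43.5, 40.9 and 38.8 CPM at relapse and 98.9, 76.4 and 93.9 CPM in controls (-1.13 ± 0.09, edgeR adjusted p = 8.27e-08), and with 34.1, 34.6 and 33.8 CPM with sgIgfbp5 and 52.2, 57.1 and 54.0 CPM with sgScr (-0.67 ± 0.08, edgeR adjusted p = 1.15e-05). In the tumours only 45.1% to 68.5% (relapsed) and 32.5% to 56.8% (control) of the Col16a1 counts were on protein-coding transcripts.

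The remaining FACITs were faint. Col20a1 had 0.698, 0.697 and 0.490 CPM at relapse and 3.37, 2.31 and 3.92 CPM in controls (-2.34 ± 0.34, edgeR adjusted p = 5.25e-07), and 12, 10.1 and 10.1 CPM with sgIgfbp5 and 0.521, 0.853 and 0.699 CPM with sgScr (3.94 ± 0.21, edgeR adjusted p = 2.56e-08). Col9a3, a chain of the type IX collagen on cartilage fibrils, had 0.199, 0.0498 and 0.441 CPM at relapse and 1.00, 1.37 and 0.754 CPM in controls (-2.14 ± 0.56, edgeR adjusted p = 0.00133). That value was -2.99 without relapsed replicate 3, and the call was lost in TPM (limma adjusted p = 0.187). Between 0% and 49.0% of the Col9a3 counts at relapse, and 16.0% to 93.5% in controls, lay on protein-coding transcripts. These shares rest on 4, 1 and 9 counts at relapse and 22, 26 and 15 in controls, too few to tell transcript types apart. With sgIgfbp5, Col9a3 had 3.64, 2.16 and 3.29 CPM, against 0.209, 0.301 and 0.430 CPM with sgScr (3.25 ± 0.37, edgeR adjusted p = 1.25e-05).

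Col22a1, known from the junction of muscle and tendon, was higher at relapse, with 0.549, 0.797 and 0.539 CPM, against 0, 0.263 and 0 CPM in controls, where all 5 counts came from replicate 2. Its fitted value of 2.83 ± 0.80 (edgeR adjusted p = 0.00255) was 6.70 without control replicate 2 and 2.22 without control replicate 1. In CUUC-G it fell under the filter, with 6 counts with sgIgfbp5 and 49 with sgScr.

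The multiplexins Col15a1 and Col18a1 are basement membrane collagens whose ends are released as fragments that inhibit vessel growth. Col18a1 (ENSMUSG00000001435.16), the source of endostatin, was 14.7-fold lower at relapse, with 5.19, 5.43 and 6.77 CPM, against 87.1, 79.2 and 90.0 CPM in controls (-3.88 ± 0.09, edgeR adjusted p = 4.02e-24). With sgIgfbp5 it was 6.10-fold higher, with 41.1, 47.7 and 41.8 CPM, against 5.99, 7.68 and 7.69 CPM with sgScr (2.61 ± 0.12, edgeR adjusted p = 7.29e-09). The estimated split over its transcripts differed too: Col18a1-201 held 2.01% to 7.08% of its counts at relapse and 34.9% to 38.4% in controls. The relapsed shares rest on 7, 2 and 10 estimated counts. The split also varied within the relapsed group, where Col18a1-202 held 89.9%, 95.7% and 50.1%. Col15a1 had 0.299, 0.249 and 0.441 CPM at relapse and 3.33, 3.31 and 3.57 CPM in controls (-3.34 ± 0.36, edgeR adjusted p = 2.94e-09), and was under the filter in CUUC-G.

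Among the transmembrane collagens, only Col17a1, the hemidesmosome collagen of basal epithelial cells, was tested. It had 48 counts at relapse (0.499, 0.896 and 0.980 CPM) and 3 in controls (1 in each library), a ratio of 15.8 with an exact 95% interval of 5.11 to 79.5 that covers counting error only (edgeR adjusted p = 3.67e-05). In CUUC-G it fell under the filter, with 18 counts with sgIgfbp5 and 35 with sgScr.

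The 14 genes under the filter in the tumours were Col2a1, Col4a3, Col6a4, Col6a5, Col6a6, Col9a1, Col9a2, Col10a1, Col13a1, Col19a1, Col23a1, Col25a1, Col26a1 and Col28a1, and the 17 in CUUC-G were these with Col15a1, Col17a1 and Col22a1. None of the 14 had more than 21 counts over the 3 libraries of a tumour group. Col25a1, a neuronal transmembrane collagen, had 21 counts at relapse and 0 in controls, which is 6.93-fold higher against a floor of 3 counts over the group. Col10a1, the collagen of hypertrophic cartilage, had 11 counts at relapse and 0 in controls, 3.63-fold higher against that floor. In CUUC-G, Col26a1 had 20 counts with sgIgfbp5 and 0 with sgScr, 6.77-fold higher against the same floor. Col9a1 and Col13a1 had no count in any of the 12 libraries.

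**Figure D4:**
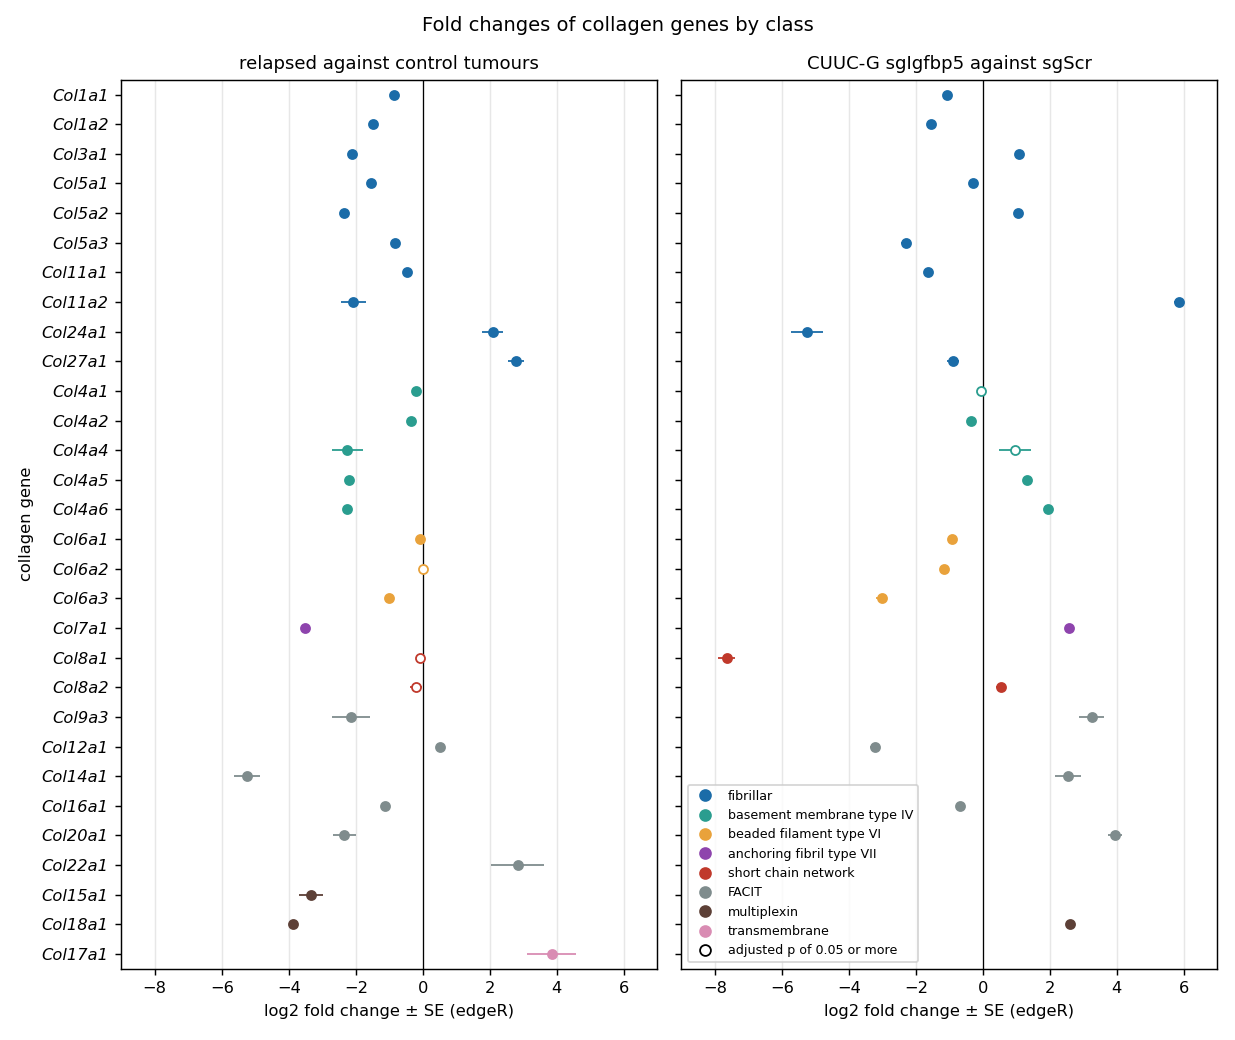
Log2 fold change (points) and its SE (bars) from edgeR for every collagen gene that passed the filter, coloured by class; left, 30 genes in relapsed against control tumours, and right, 27 genes in CUUC-G sgIgfbp5 against sgScr. Open points have an adjusted p of 0.05 or more: Col6a2, Col8a1 and Col8a2 at relapse, and Col4a1 and Col4a4 with sgIgfbp5. Under library-size scaling the signs of Col6a2 at relapse and Col4a1 with sgIgfbp5 turn.

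Set side by side, the comparisons divided the 27 collagen genes tested in both. Lower at relapse and higher with sgIgfbp5 were 10: Col3a1, Col4a5, Col4a6, Col5a2, Col7a1, Col9a3, Col11a2, Col14a1, Col18a1 and Col20a1. Lower in both were 9: Col1a1, Col1a2, Col4a2, Col5a1, Col5a3, Col6a1, Col6a3, Col11a1 and Col16a1. Col12a1, Col24a1 and Col27a1 were higher at relapse and lower with sgIgfbp5, and no collagen gene was called higher in both. Over all 5190 genes called higher at relapse and tested in both, 12% were higher and 66.1% lower with sgIgfbp5, so nothing is read from these 3 genes. Of the 21 collagen genes called lower at relapse and tested in both, 47.6% were higher and 42.9% lower with sgIgfbp5. Over all 5083 genes called lower at relapse and tested in both, the shares were 62.9% and 13.7%. These shares are descriptions, and no test was made between the comparisons. The relapsed and sgScr libraries had like levels: 95.8% of the 12670 genes with at least 1 TPM in both were within 1.5-fold. Relapsed tumours are the tested group at relapse, and sgScr is the reference with sgIgfbp5. Opposite directions in the comparisons are therefore partly built in and are not independent results.

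**Figure D5:**
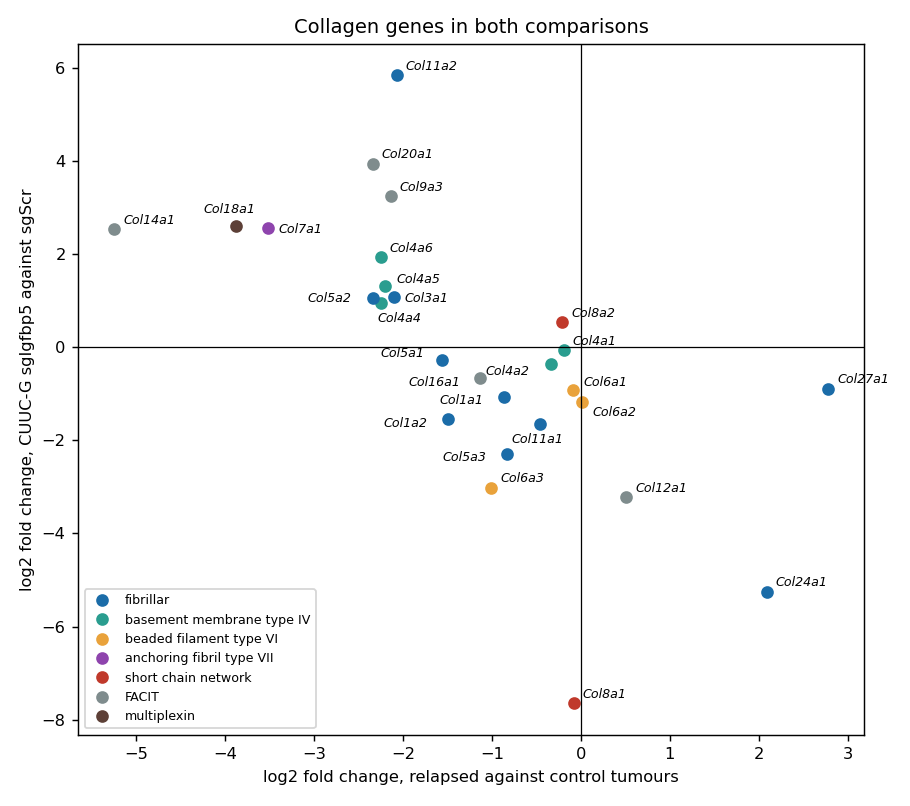
Log2 fold change in relapsed against control tumours (x axis) and in CUUC-G sgIgfbp5 against sgScr (y axis) for the 27 collagen genes tested in both, 1 point per gene, coloured by class. Upper left are genes lower at relapse and higher with sgIgfbp5, such as Col11a2 (-2.07 and 5.84) and Col18a1 (-3.88 and 2.61); Col8a1 lies alone at the bottom (-0.08 and -7.65). Col6a2 and Col4a1 lie at the axes, and their signs turn with the scaling.

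The levels of the collagen genes in relapsed tumours lay close to those of the sgScr line, as did the levels of genes in general. Of the 21 collagen genes with a mean of at least 1 TPM in both of these groups, 19 or 90.5% differed by less than 1.5-fold, the others being Col7a1 and Col8a2. Over all genes the share was 95.8% of 12670. Among genes with at least 1 TPM in either group it was 20 of 24 collagen genes (83.3%), with Col11a2 and Col24a1 also outside, and 91.3% of all 13533 genes. Col1a1 averaged 1399 ± 15.3 TPM in relapsed tumours and 1381 ± 79.2 TPM with sgScr (SD, n = 3 each). Col6a1 averaged 163 ± 3.92 and 160 ± 11.7 TPM in these groups, and Col8a1 25.9 ± 1.41 and 25.7 ± 2.01 TPM (SD, n = 3 each). The tumour and line tables were deposited separately, so the levels are set side by side without a test.

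The genes that modify, export, crosslink, bind and cleave collagen were read from 6 lists, whose counts stand against 36.6% higher and 36.9% lower over all genes at relapse and 36.5% higher and 34.3% lower with sgIgfbp5. Among 19 tested genes of chain modification and folding, 11 were higher and 6 lower at relapse, while with sgIgfbp5 2 were higher and 16 lower. Plod2, a lysyl hydroxylase that prepares crosslinks, averaged 550 ± 8.41 CPM at relapse and 231 ± 11.7 CPM in controls (1.25 ± 0.04, edgeR adjusted p = 6.37e-22), and 73.9 ± 9.88 CPM with sgIgfbp5 and 534 ± 1.64 CPM with sgScr (-2.85 ± 0.10, edgeR adjusted p = 6.51e-10; SD, n = 3 each). P4hb, a subunit of prolyl 4-hydroxylase, averaged 1923 ± 0.979 CPM at relapse and 1171 ± 25.4 CPM in controls, and 654 ± 36.3 CPM with sgIgfbp5 and 1892 ± 12.3 CPM with sgScr (SD, n = 3 each). The collagen chaperone Serpinh1 went against its list, at 1336 ± 20.4 CPM at relapse and 2503 ± 109 CPM in controls (-0.91 ± 0.03, edgeR adjusted p = 1.35e-20), and at 2550 ± 177 CPM with sgIgfbp5 and 1522 ± 45.1 CPM with sgScr (0.74 ± 0.07, edgeR adjusted p = 3.55e-06; SD, n = 3 each).

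Of 10 genes of procollagen export, 3 were higher and 4 lower at relapse, and 3 higher and 6 lower with sgIgfbp5. Sec24d, a coat protein of the vesicles that carry procollagen, averaged 202 ± 2.55 CPM at relapse and 263 ± 7.91 CPM in controls, and 85.7 ± 3.22 CPM with sgIgfbp5 and 206 ± 6.81 CPM with sgScr (SD, n = 3 each). Both differences passed, at -0.38 ± 0.04 (edgeR adjusted p = 1.78e-10) and -1.26 ± 0.07 (edgeR adjusted p = 2.63e-08).

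Among 13 tested genes of propeptide removal and crosslinking, 7 were higher and 6 lower at relapse, and 2 higher and 10 lower with sgIgfbp5. Adamts3, a propeptide-cleaving enzyme, averaged 59.0 ± 2.72 CPM at relapse and 5.49 ± 0.163 CPM in controls (3.43 ± 0.09, edgeR adjusted p = 3.35e-23), and 5.88 ± 0.770 CPM with sgIgfbp5 and 58.0 ± 10.8 CPM with sgScr (-3.30 ± 0.16, edgeR adjusted p = 1.97e-08; SD, n = 3 each). The crosslinking enzyme gene Loxl1 was lower in both, at 39.7 ± 2.36 CPM at relapse and 238 ± 3.34 CPM in controls, and at 12.3 ± 0.178 CPM with sgIgfbp5 and 42.2 ± 1.49 CPM with sgScr (SD, n = 3 each).

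Of the proteoglycans and matrix proteins that bind collagen, 5 were higher and 10 lower at relapse among 15 tested, and 2 were higher and 6 lower with sgIgfbp5 among 12. Postn, a matrix protein that links collagen and crosslinking enzymes, averaged 24.9 ± 0.709 CPM at relapse and 508 ± 15.2 CPM in controls (-4.35 ± 0.04, edgeR adjusted p = 2.69e-32), and 1.01 ± 0.185 CPM with sgIgfbp5 and 22.6 ± 2.09 CPM with sgScr (-4.48 ± 0.17, edgeR adjusted p = 1.38e-09; SD, n = 3 each). Thbs2, whose protein affects fibril assembly, averaged 3584 ± 19.0 CPM at relapse and 1199 ± 24.0 CPM in controls (1.58 ± 0.03, edgeR adjusted p = 8.18e-28), and 74.5 ± 3.83 CPM with sgIgfbp5 and 3582 ± 217 CPM with sgScr (-5.59 ± 0.09, edgeR adjusted p = 9.42e-12; SD, n = 3 each). Sparc, a collagen chaperone and matrix protein, was lower in both, at 1532 ± 26.7 CPM at relapse and 3774 ± 69.6 CPM in controls, and at 1209 ± 66.5 CPM with sgIgfbp5 and 1720 ± 19.8 CPM with sgScr (SD, n = 3 each).

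The collagen receptors split: 2 were higher and 5 lower of 8 tested at relapse, and 4 higher and 3 lower of 8 with sgIgfbp5. Ddr1, the collagen-binding kinase of epithelia, averaged 133 ± 6.80 CPM at relapse and 41.2 ± 3.75 CPM in controls (1.69 ± 0.06, edgeR adjusted p = 1.67e-19), whereas Ddr2, its counterpart in connective tissue, averaged 218 ± 7.45 CPM at relapse and 587 ± 26.6 CPM in controls (-1.43 ± 0.04, edgeR adjusted p = 5.04e-23; SD, n = 3 each). With sgIgfbp5 both were higher, by 0.22 ± 0.08 (edgeR adjusted p = 0.0265) and 0.52 ± 0.10 (edgeR adjusted p = 0.000644) on the log2 scale.

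Of 10 tested genes of collagen degradation, 7 were higher and 2 lower at relapse, and of 9 tested with sgIgfbp5, 1 was higher and 7 lower. The largest change of the list at relapse was in Mmp3, at 91.4 ± 3.21 CPM, against 0.103 ± 0.0891 CPM in controls (SD, n = 3 each). Its log2 fold change of 9.77 ± 0.17 (edgeR adjusted p = 4.51e-27) rests on 6 counts in controls. Mmp2, a gelatinase, averaged 419 ± 3.20 CPM at relapse and 110 ± 2.10 CPM in controls (1.92 ± 0.04, edgeR adjusted p = 2.19e-26), and 51.5 ± 3.30 CPM with sgIgfbp5 and 418 ± 10 CPM with sgScr (-3.02 ± 0.08, edgeR adjusted p = 9.71e-11; SD, n = 3 each). Mmp13, the main interstitial collagenase of the mouse, averaged 65.5 ± 1.80 CPM at relapse and 2.62 ± 1.38 CPM in controls (4.66 ± 0.22, edgeR adjusted p = 9.48e-07), and 16.0 ± 0.946 CPM with sgIgfbp5 and 63.0 ± 2.29 CPM with sgScr (-1.98 ± 0.08, edgeR adjusted p = 4.00e-09; SD, n = 3 each). Ctsk, a lysosomal protease that cleaves collagen, was lower in both, at 28.6 ± 2.19 CPM at relapse and 74.2 ± 5.56 CPM in controls (-1.37 ± 0.07, edgeR adjusted p = 2.99e-16), and at 7.47 ± 1.27 CPM with sgIgfbp5 and 30.6 ± 4.92 CPM with sgScr (-2.03 ± 0.15, edgeR adjusted p = 4.21e-07; SD, n = 3 each).

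Markers of the cells that make collagen were read beside these results. The summed level of 12 fibroblast markers was 1629 to 1665 CPM at relapse and 2104 to 2168 CPM in controls, with 5 markers higher and 7 lower of 12 tested, against 36.6% and 36.9% of all genes. Among the higher ones was Pdgfra, a growth factor receptor of fibroblasts, at 108 ± 3.84 CPM at relapse and 11.2 ± 1.96 CPM in controls (SD, n = 3 each). Thy1 was among the lower ones, at 19.6 ± 0.631 CPM at relapse and 66.8 ± 3.06 CPM in controls (SD, n = 3 each). With sgIgfbp5 the summed level of the fibroblast markers was 802 to 875 CPM, against 1732 to 1804 CPM with sgScr. Of 10 tested there, 2 were higher and 8 lower, against 36.5% and 34.3% of all genes in CUUC-G. Smooth muscle markers summed to 1402 to 1423 CPM at relapse and 2494 to 2616 CPM in controls (2 higher, 7 lower of 10), and to 204 to 235 CPM with sgIgfbp5 and 1445 to 1625 CPM with sgScr, where 10 of 10 were lower. None of the fibroblast or smooth muscle markers was at 0 in every library.

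The urothelial markers, given above for the tumours, summed to 154 to 182 CPM with sgIgfbp5 and 670 to 755 CPM with sgScr in CUUC-G. There 3 were higher and 7 lower of 11, against 36.5% and 34.3% of all genes. Upk2, Upk3a and Krt5 were at 0 in every CUUC-G library. Endothelial markers summed to 153 to 165 CPM at relapse and 6.62 to 7.39 CPM in controls, and to 12.8 to 14.6 CPM with sgIgfbp5 and 152 to 159 CPM with sgScr. Kdr held most of the relapsed sum, at 156 ± 5.69 CPM in relapsed libraries and 1.44 ± 0.265 CPM in control libraries (SD, n = 3 each), while 8 of the 10 endothelial markers were under 1 CPM in every library of either comparison. Leukocyte markers summed to at most 6.08 CPM in any library. The part of these markers, and of the Ddx3y difference between the tumour groups, in the collagen results was not tested.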

How the data were processed

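The libraries were made with a stranded TruSeq kit after poly(A) selection, per the labels' protocols. The authors deposited transcript tables of estimated counts and of TPM made with Salmon, per the submitters' processing notes, which also name the builds GRCm38 and mm10; the Salmon version and its strand setting are not given in the sources used here. The 147828 transcripts of the tumour table were summed to 55858 gene identifiers, and 0 columns of the mouse tables were left unmatched to a sample. In the CUUC-G table, 153 gene and library values had 0 counts and a TPM above 0.

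Summed counts were rounded and tested with edgeR 4.0.16 in R 4.3.3: TMM scaling, filterByExpr, a robust quasi-likelihood fit per comparison, two-sided tests and Benjamini-Hochberg adjustment over all genes tested, with a threshold of 0.05. Each SE was taken as the size of the log2 fold change over the root of its F statistic. CPM values are TMM-scaled. Where a group had 0 counts, the fold is given against a floor of 3 counts over the group. That fold leaves out the counting error of the higher group. An exact 95% binomial interval is given for 1 to 3 counts and covers counting error only. The alternatives used DESeq2 1.42.0, limma 3.58.1 on log2(TPM + 1) and log2(TPM + 0.1) for genes with a mean of at least 1 TPM or with no filter, other scalings and filters, a replicate block, protein-coding transcripts alone, and each library left out.

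Replicates differed by more than sampling noise. On simulated counts for the tumours (14087 genes), 39, 44, 49 and 50 of 50 genes changed by 1.5, 2, 4 and 8-fold were recovered, with 13 false calls. For CUUC-G (14251 genes) 36, 43, 50 and 49 of 50 were, with 16 false calls. The changed genes were few and none was low in counts, whereas 73.5% and 70.8% of genes passed in the data. Recovery of low genes such as Col9a3, and false calls at such shares, were not tested. Positions come from GENCODE M21 on GRCm38, matched for 44 of 44 genes without the identifier version; the annotation release of the deposited tables may differ. Promoter windows come from RefSeq on GRCm38.p6, with windows for 35 of 44 genes.

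Every collagen gene is accounted for; values per library are printed for genes with a group mean of at least 5 CPM and for partner chains, and also for other tested genes. From each companion list, genes among the 4 with the lowest p in either comparison were named. The markers Krt8, Kdr, Pdgfra, Thy1, Gata3 and Pparg were named after their values were seen. The symbol Sc65 of the chain modification list matched no gene. The members and lists were chosen with earlier results of these data known. Ratios of TPM between Col4a5 and Col4a6 and between Col3a1 and Col1a1 were added after the data were seen.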

Additional observations from a re-analysis of the deposited data

How the results depend on the processing

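Over 17 alternatives at relapse, 469 of 488 collagen values kept their direction and their side of the threshold, and over 16 in CUUC-G, 416 of 425 did; 23 genes did so throughout in each comparison. The 5 collagen genes higher at relapse became 3 with at least 1 CPM in 3 libraries, 1 with limma on log2(TPM + 1), 1 on log2(TPM + 0.1) and 3 with limma and no filter; 27 of the 30 genes entered the first of these fits and 21 the next 2. With a fold of at least 2 required, 9 of the 14 collagen genes lower with sgIgfbp5 were left. Over all genes, 5260 were higher at relapse in the main fit and 3438 and 3390 with limma at the pseudocounts of 1 and 0.1; a fold of at least 2 left 1899 higher and 1724 lower, and in CUUC-G 2118 higher and 2441 lower. Col6a2 at relapse turned to -0.012 under library-size scaling, to -0.011 with no low-count filter, to -0.142, -0.143 and -0.142 in the limma fits and to -0.025 on protein-coding transcripts, and ranged over -0.016 to 0.034 with 1 library left out. Col4a1 in CUUC-G turned to 0.051 under library-size scaling and to 0.0068, 0.0069 and 0.0068 in the limma fits. Sizes moved by over 1.5-fold in 19 collagen values at relapse and 25 in CUUC-G. The cause was not tested. Library-size scaling moved the median of all genes in CUUC-G to 0.17, against 0.06 with TMM, and limma on TPM gave -0.12 at relapse, against 0.002. Calls at relapse were lost in limma without a filter for Col11a2 (adjusted p = 0.0567), Col17a1 (0.0816) and Col24a1 (0.0503), as for Col4a2 in CUUC-G (0.0548). With the replicate number as a block, 5 collagen genes were higher and 22 lower at relapse and 11 and 14 in CUUC-G, as without it. Deviations of same-numbered libraries correlated at 0.006 to 0.015 at relapse, where every library correlated best with its own number. In CUUC-G they correlated at -0.082 to 0.093. With 3 libraries per group, correlations this small cannot decide whether the numbers pair the libraries. Depth limits the genes under the filter, and low genes such as Col9a3, Col17a1 and Col22a1 rest on few counts. Groups of 3 libraries of unstated origin limit every p-value.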
